A study of Mus musculus with 16 samples.

Results

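The transcriptomes of tumour cells from mice given the MYC inhibitor MYCi975 were compared directly with those from mice given TMP195, which inhibits the class IIa histone deacetylases (HDACs). The comparison holds 8 of the 16 libraries of the study, 4 for MYCi975 and 4 for TMP195, chosen by the compound named in their labels. All mice carried tumours of LLC1, a mouse Lewis lung carcinoma line. Mice of the MYCi975 group received 50 mg/kg of MYCi975 and mice of the TMP195 group 50 mg/kg of TMP195, each for 16 days, and RNA was taken from an enriched tumour cell population. The remaining 8 libraries, of vehicle and of both compounds together, served only to filter low genes and entered the fit in 1 alternative. The sources used here do not give host strain, age, sex, the site of the tumours or the way the cells were enriched. Nor do the labels tie each library to an animal of its own, and the p-values below cover only the variation among these libraries, some of which may be technical.

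MYC pairs with MAX on DNA at a short palindrome called the E-box, where it raises genes of ribosome production, nucleotide supply and cell division, and MXI1 competes with it for MAX. MYCi975 was designed to bind MYC directly, to disturb its pairing with MAX and to promote its breakdown, so the Myc transcript is not a direct readout of its action. Class IIa HDACs (HDAC4, HDAC5, HDAC7 and HDAC9) have weak enzyme activity of their own, bind MEF2 transcription factors and the NCoR corepressor complex, and shuttle between nucleus and cytoplasm. TMP195 occupies their acetyl-lysine binding pocket and is best known for acting on monocytes and macrophages, including those of mouse breast tumours.

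No gene was called different between the compounds. Among the lists of genes examined, members of the interferon response and the histone genes were mostly higher with MYCi975. Members of the hypoxia response, glycolysis and NRF2-driven antioxidant defence, and markers of macrophages, were mostly lower with MYCi975 than with TMP195. These patterns are given below as counts and levels, beside the same counts over all genes, because no single gene in them passed the test. The mean level of each of these lists overlapped between the compounds. Those of hypoxia and glycolysis were highest in TMP195 replicates 2 and 3, while TMP195 replicates 1 and 4 lay near the MYCi975 libraries.

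The promoters of 4 genes show the letters by which the interferon and hypoxia programmes are usually recognised, and these genes recur in the results. The sequences are from RefSeq on GRCm38.p6, 5′ to 3′ on the strand of the gene, from 250 bases before the annotated start to 50 after it. Capitals in Ifit1 (chr19:34640639-34640938, plus strand) and Ifit3 (chr19:34583279-34583578, plus strand) mark matches to GAAANNGAAA, the core of the interferon-stimulated response element. Capitals in Car9 (chr4:43506776-43507075, plus strand) and Ankrd37 (chr8:45999801-46000100, minus strand) mark matches to ACGTG, the core bound by hypoxia-inducible factors.
Ifit1: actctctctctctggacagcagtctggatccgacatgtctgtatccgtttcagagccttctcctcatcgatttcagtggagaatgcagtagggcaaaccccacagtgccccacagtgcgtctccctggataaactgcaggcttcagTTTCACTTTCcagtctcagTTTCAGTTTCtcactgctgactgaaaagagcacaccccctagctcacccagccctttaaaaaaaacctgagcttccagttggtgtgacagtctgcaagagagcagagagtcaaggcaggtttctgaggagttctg
Ifit3: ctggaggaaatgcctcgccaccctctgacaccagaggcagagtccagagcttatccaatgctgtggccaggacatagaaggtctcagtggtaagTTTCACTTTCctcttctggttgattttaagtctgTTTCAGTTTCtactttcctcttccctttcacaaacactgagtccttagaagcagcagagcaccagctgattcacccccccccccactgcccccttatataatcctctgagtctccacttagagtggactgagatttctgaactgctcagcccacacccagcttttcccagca
Car9: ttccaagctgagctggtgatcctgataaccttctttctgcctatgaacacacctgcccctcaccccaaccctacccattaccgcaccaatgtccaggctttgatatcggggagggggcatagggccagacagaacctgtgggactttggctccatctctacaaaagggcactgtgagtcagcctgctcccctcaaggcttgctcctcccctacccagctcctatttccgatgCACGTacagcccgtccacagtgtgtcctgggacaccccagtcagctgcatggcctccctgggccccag
Ankrd37: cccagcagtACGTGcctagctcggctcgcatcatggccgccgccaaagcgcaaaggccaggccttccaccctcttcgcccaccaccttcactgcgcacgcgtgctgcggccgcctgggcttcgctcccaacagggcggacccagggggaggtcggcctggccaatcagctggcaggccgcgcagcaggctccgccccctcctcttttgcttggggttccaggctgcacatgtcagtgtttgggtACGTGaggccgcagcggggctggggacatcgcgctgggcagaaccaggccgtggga
Both strands were searched, so a match on the other strand appears as TTTCNNTTTC or CACGT. Matches began at -104 and -85 in Ifit1, at -156 and -122 in Ifit3, at -18 in Car9 and at -241 and -6 in Ankrd37, where -1 is the base before the start. A match describes the letters of the window only and does not show binding.

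The same search over the whole promoter table gave the share of promoters that hold each motif. Promoters were available for 44 of 60 tested interferon genes, 21 of 27 hypoxia genes and 22 of 23 glycolysis genes. They were available for 58 of 64 MYC targets and 25 of 30 NRF2 genes, and some genes had more than 1 promoter. GAAANNGAAA occurred in 24 of 52 promoters of the tested interferon genes (46.2%), against 3.19% of 13009 promoters of tested genes and 3.44% of all 32851 promoters. ACGTG occurred in 18 of 31 hypoxia promoters (58.1%) and in 48.6% of 35 glycolysis promoters, against 25.1% of promoters of tested genes and 19.6% of all, and also in 31 of 65 promoters of MYC target genes (47.7%). The E-box CACGTG, which contains ACGTG, occurred in 16 of 65 promoters of MYC target genes (24.6%), against 9.63% of promoters of tested genes and 7.15% of all. TGACNNNGC, the core of the antioxidant response element, occurred in 9 of 35 promoters of NRF2-driven genes (25.7%), against 14.1% of promoters of tested genes and 12.4% of all. These shares describe the lists and not the treatments.

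Values are variance-stabilised counts on a scale close to log2, and a difference of 1 on it is about 2-fold for well expressed genes and more than that for weakly expressed ones. The number of reads per library is unknown. All 16 libraries share a lowest value of 4.84, which 1985 to 2713 genes had in each of the 8 libraries compared. Genes at least 1 unit above this value in at least 4 libraries of the series were tested, 15715 of 24334.

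The 2 compounds' libraries were as alike across the compounds as within each. Spearman's correlation over the tested genes had a median of 0.977 over the 16 pairs of libraries between compounds, against 0.976 within MYCi975 and 0.975 within TMP195 (6 pairs each). Of the variance, 28.1% lay on principal component 1. Both libraries numbered 4 stood apart on it, with a score of 28 for MYCi975 and 30.4 for TMP195, while the other 6 lay between -31.1 and 2.4. The labels mark no batch or other feature shared by the libraries numbered 4. A second feature was leukocyte RNA, which is described with the cell type markers and was highest in TMP195 replicate 1 and MYCi975 replicate 3. Results that rest on these libraries are given with and without them.

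With limma, 0 of 15715 genes (0%) passed an adjusted p of 0.05, and the smallest adjusted p was 0.641, for Cd93. An unadjusted p under 0.05 was found for 606 genes, and of these 270 were higher in MYCi975 (1.72% of those tested) and 336 lower (2.14%). The 606 genes were 3.86% of those tested, a smaller share than a cut of 0.05 gives by chance alone. The 4 values of one compound all lay above the 4 of the other for 178 genes higher in MYCi975 (1.13%) and 178 genes lower (1.13%). The median difference of all tested genes was 0.006, and 51.5% of genes were higher in MYCi975. The 95% confidence interval of a gene reached 0.361 to either side in the median, and for 95.2% of genes the whole interval lay within 1 log2 unit either way. A difference of at least 1 unit was seen for 45 genes, none of them called.

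**Figure D1:**
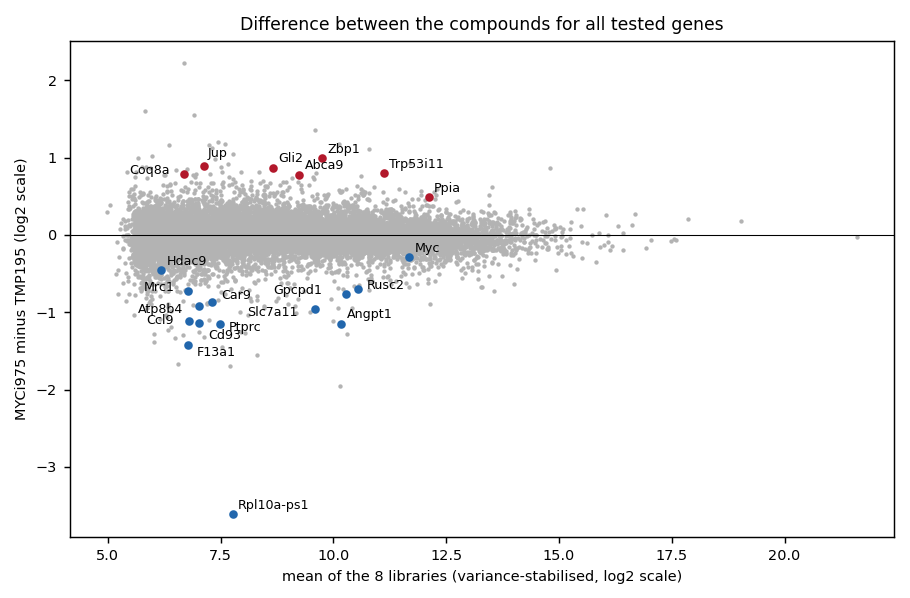
Difference between compounds (MYCi975 minus TMP195, log2 scale, vertical axis) against the mean of the 8 libraries (log2 scale, horizontal axis) for all 15715 tested genes, each a grey point. Named genes are coloured red where higher and blue where lower in MYCi975; most genes lie close to 0, and Rpl10a-ps1 at -3.61 lies farthest from it.

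The genes of the drug targets were looked at first. Myc (ENSMUSG00000022346.18) had 11.90, 11.36, 11.64 and 11.26 in the MYCi975 libraries, against 12.04, 12.02, 11.60 and 11.67 in the TMP195 libraries. The groups overlapped, and the difference of -0.29 (SE 0.17, 95% confidence interval -0.66 to 0.07) had a two-sided exact permutation p of 0.143, where 0.0286 is the smallest possible. Its partner Max averaged 10.58 ± 0.11 in MYCi975 libraries and 10.59 ± 0.21 in TMP195 libraries (SD, n = 4 each), with an interval of the difference from -0.29 to 0.27. Mxi1, the antagonist of MYC that is also a gene of the hypoxia response, averaged 12.18 ± 0.27 in MYCi975 libraries and 12.49 ± 0.27 in TMP195 libraries (SD, n = 4 each). None of the 13 tested members of the MYC network had an unadjusted p under 0.05, against 3.86% of all tested genes. Of these members 10 were lower in MYCi975, the median difference was -0.08, and the differences ran from -0.32 to 0.21.

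Among class IIa HDAC genes, Hdac9 (ENSMUSG00000004698.12) had 6.07, 5.97, 5.94 and 5.82 in the MYCi975 libraries, against 6.60, 6.36, 6.38 and 6.30 in the TMP195 libraries. All MYCi975 libraries lay below all TMP195 libraries. The difference of -0.46 (SE 0.14, 95% confidence interval -0.76 to -0.16) had an unadjusted limma p of 0.00672 and an exact permutation p of 0.0286, the smallest possible, but an adjusted limma p of 1 over all genes. Hdac9 was among the weakly expressed genes, less than 2 units above the lowest value, where few reads lie behind a value. Hdac4, Hdac5 and Hdac7 overlapped between the groups, with differences of -0.17, -0.10 and -0.08. The MEF2 genes Mef2a, Mef2c and Mef2d, whose proteins class IIa HDACs bind, differed by -0.09, -0.01 and 0.07. Of 12 other HDAC and NCoR complex genes 6 were higher and 6 lower in MYCi975, none with an unadjusted p under 0.05, against 3.86% of all tested genes.

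Genes that MYC is known to raise were then compared as lists. Of 64 MYC targets 42 were higher in MYCi975 and 22 lower, with a median difference of 0.06, and list means in the libraries were 10.70 to 10.90 in MYCi975 against 10.69 to 10.76 in TMP195. Hspe1, a mitochondrial co-chaperonin, was the only MYC target whose groups did not overlap, at 11.79, 11.91, 11.84 and 11.94 in MYCi975 libraries against 11.61, 11.13, 11.04 and 11.51 in TMP195 libraries. It was also the only MYC target with an unadjusted p under 0.05. Of all tested genes 1.72% had such a p in that direction and 1.13% did not overlap, so 1 of 64 is near these shares.

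Related growth programmes had similarly small medians. Of 54 genes of ribosome biogenesis 40 were higher in MYCi975 (median 0.09), as were 54 of 74 cytosolic ribosomal protein genes (0.08) and 62 of 78 mitochondrial ribosomal protein genes (0.09). Purine and pyrimidine synthesis (24 genes, median 0.02), DNA replication (46 genes, 0.07) and mitosis (42 genes, 0.04) had 0 members with an unadjusted p under 0.05, against 3.86% of all tested genes. Such a p was seen for 1 gene of ribosome biogenesis, lower in MYCi975, against 2.14% of all tested genes. It was seen for 3 cytosolic and 1 mitochondrial ribosomal protein genes, all higher in MYCi975, against 1.72% of all tested genes. Median centring of the libraries moved all differences by about -0.03 and turned the median of purine and pyrimidine synthesis to -0.01, while the other medians of this paragraph and that of MYC targets stayed above 0. Values of single ribosomal protein genes are uncertain because reads of their pseudogenes can be assigned to them. No vehicle library enters these differences, so they do not say whether either compound moved a gene from its untreated level.

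**Figure D2:**
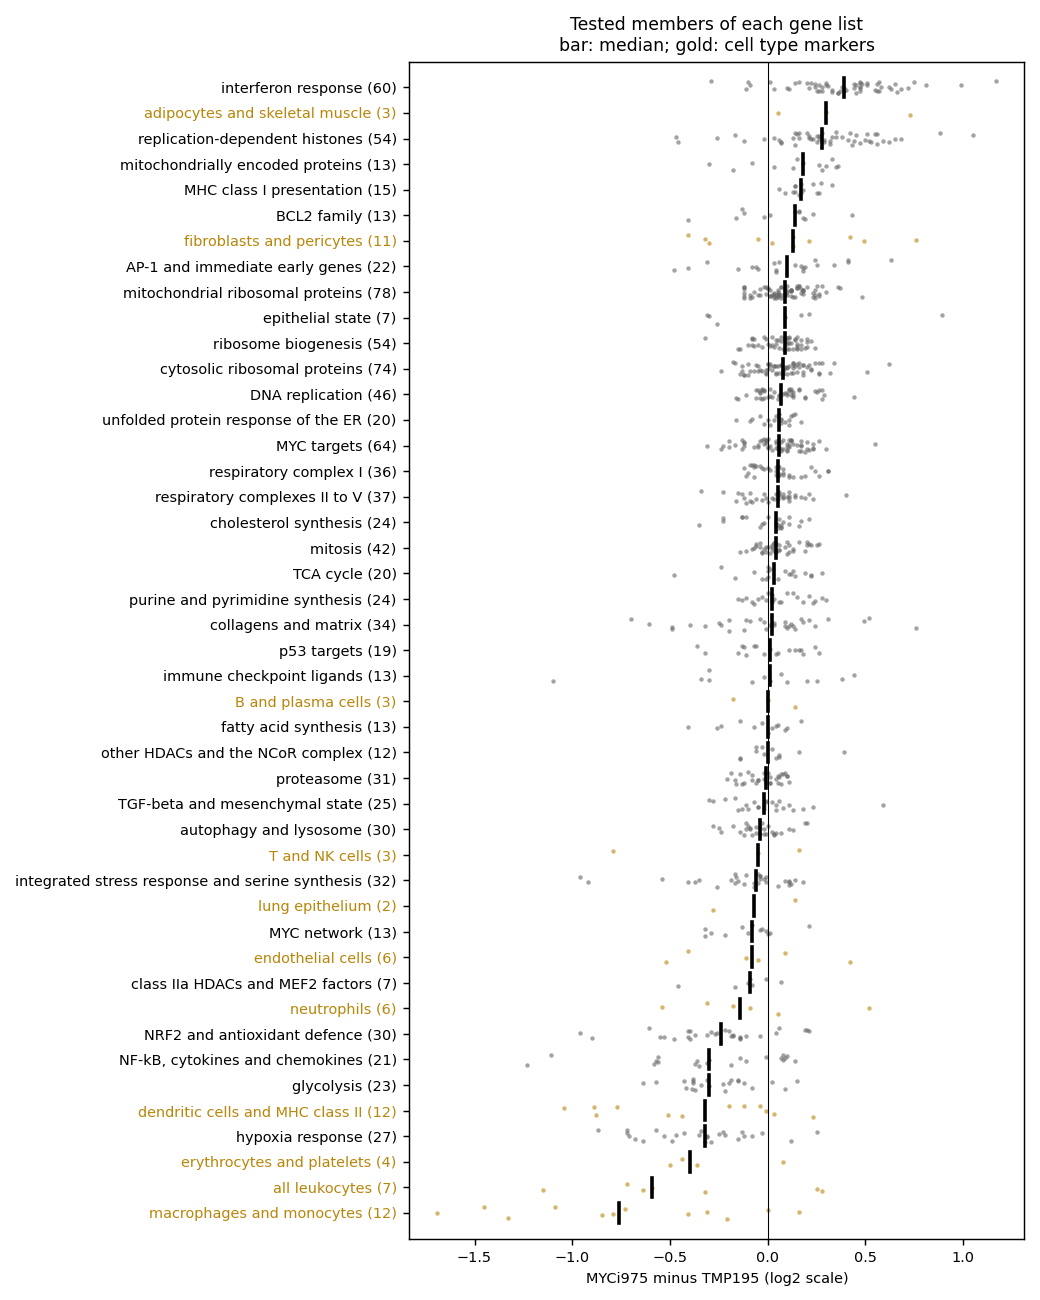
Difference between the compounds (MYCi975 minus TMP195, log2 scale, horizontal axis) for the tested members of every gene list, with the number tested in brackets; points are genes, black bars are medians, and gold rows are cell type markers. The interferon response lies farthest to the right with a median of 0.39, and macrophage and monocyte markers farthest to the left with -0.76.

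Antioxidant genes driven by NRF2, the transcription factor that answers oxidative stress, were mostly lower in MYCi975. Of 30 tested members 25 were lower and 5 higher, with a median of -0.24. An unadjusted p under 0.05 was seen for 12 members, all lower, and the groups did not overlap for 6 members, again all lower, against 2.14% and 1.13% of all tested genes in that direction. The list mean was 10.53, 10.42, 10.39 and 10.40 in the MYCi975 libraries, against 10.70, 10.83, 10.80 and 10.47 in the TMP195 libraries. TMP195 replicate 4 thus lay within the MYCi975 range and the other 3 TMP195 libraries above it. Without both libraries numbered 4 the median was -0.34, and it lay between -0.30 and -0.20 when single libraries were left out.

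Genes of glutathione supply were among the 6 members of this list without overlap. Slc7a11 (ENSMUSG00000027737.11), the cystine importer, had 9.54, 8.99, 9.17 and 8.78 in MYCi975 libraries, against 10.14, 10.36, 10.28 and 9.54 in TMP195 libraries. The highest MYCi975 value and the lowest TMP195 value were the same to 2 decimals but did not cross, and the difference was -0.96 (SE 0.21, limma adjusted p = 0.852). Gclc, the catalytic subunit of the enzyme that starts glutathione synthesis, had 9.52, 9.67, 9.66 and 9.51 in MYCi975 libraries, against 9.89, 10.23, 10.11 and 10.03 in TMP195 libraries. Its modifier subunit Gclm had 10.25, 9.99, 9.77 and 10.14 in MYCi975 libraries, against 10.42, 10.96, 10.56 and 10.34 in TMP195 libraries. Neither subunit overlapped between the groups, and the differences were -0.48 for Gclc and -0.53 for Gclm.

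The remaining separated members keep glutathione and thioredoxin reduced or use glutathione. They were Gsr (glutathione reductase, difference -0.41), Txnrd1 (thioredoxin reductase, -0.27) and Gstm1 (a glutathione transferase, -0.40). Hmox1, the haem-degrading enzyme, was lower by 0.90 in the mean, but MYCi975 replicate 1 at 12.31 lay above TMP195 replicates 1 and 4 at 12.20 and 12.09. Nqo1, a quinone reductase, had 7.31, 6.84, 7.79 and 6.85 in MYCi975 libraries, against 8.19, 7.81, 7.97 and 7.26 in TMP195 libraries, and overlapped. Slc3a2, the heavy chain that pairs with the Slc7a11 protein, belongs to a list of the integrated stress response and was also lower without overlap (-0.37). That list shares Slc7a11 with the NRF2 list. Of its 32 members 24 were lower, with a median of -0.06, and 2 did not overlap, against 1.13% of all tested genes. Its mean was 9.83, 9.90, 9.77 and 9.86 in MYCi975 libraries, against 10.01, 9.96, 10.04 and 9.90 in TMP195 libraries, the one list whose means did not overlap, though the closest values were equal to 2 decimals. Gclc, Gclm, Gsr, Txnrd1, Gstm1 and Slc3a2 were picked out after their values were seen.

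Genes of the hypoxia response, raised by hypoxia-inducible factors when oxygen is low, were also lower in MYCi975. Of 27 tested members 25 were lower, with a median of -0.32, and 10 had an unadjusted p under 0.05, all lower, against 2.14% of all tested genes. The groups did not overlap for 3 members, all lower, against 1.13% of all tested genes. Car9 (ENSMUSG00000028463.15), a membrane carbonic anhydrase widely used as a hypoxia marker, had 6.98, 6.37, 6.93 and 7.23 in MYCi975 libraries, against 7.75, 7.85, 7.52 and 7.88 in TMP195 libraries. Ankrd37, a small ankyrin repeat protein, had 6.73, 6.23, 6.27 and 6.43 in MYCi975 libraries, against 7.05, 6.99, 7.27 and 7.22 in TMP195 libraries. For both genes all MYCi975 libraries lay below all TMP195 libraries, by -0.87 (SE 0.19) for Car9 and -0.72 (SE 0.16) for Ankrd37. Both were weakly expressed and were dropped by a stricter filter of 3 units above the lowest value, so few reads lie behind them. The third member without overlap was Bnip3l, a receptor that marks mitochondria for removal, at -0.43. Its highest MYCi975 library reached 12.71, the value of its lowest TMP195 library.

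Over the whole hypoxia list, TMP195 replicates 1 and 4 sat with the MYCi975 libraries. Its mean was 10.58, 10.30, 10.28 and 10.65 in MYCi975 libraries, against 10.54, 11.11, 10.99 and 10.58 in TMP195 libraries. Ndrg1, a stress-response gene strongly raised by hypoxia in many cells, had 13.53, 12.71, 13.10 and 13.50 in MYCi975 libraries, against 13.63, 14.55, 14.27 and 13.27 in TMP195 libraries. Without both libraries numbered 4 the median of the hypoxia list was -0.48, and without single libraries it ran from -0.42 to -0.23.

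Glycolysis genes, many of which are also raised by hypoxia, had a median of -0.30, with 20 of 23 lower. An unadjusted p under 0.05 was seen for 4 members and no overlap for 2, all lower, against 2.14% and 1.13% of all tested genes. The lists share Slc2a1 and Pdk1. Averaged over its members, glycolysis had 11.72, 11.67, 11.50 and 11.73 in MYCi975 libraries, against 11.73, 12.12, 12.12 and 11.70 in TMP195 libraries, so that TMP195 replicates 2 and 3 lay above all others. Slc2a1, the glucose transporter, had 13.32, 12.84, 12.67 and 12.86 in MYCi975 libraries, against 13.35, 14.05, 13.81 and 12.75 in TMP195 libraries. Pdk1, a kinase that inhibits pyruvate dehydrogenase, had 11.16, 11.14, 10.47 and 11.05 in MYCi975 libraries, against 10.89, 11.90, 11.82 and 11.79 in TMP195 libraries. Pfkp, a phosphofructokinase, differed by -0.43 with overlap, and by -0.26 without TMP195 replicate 2. Pgam1 (-0.39) and Pfkl (-0.38) were the 2 members that did not overlap, and were picked out after their values were seen. Leaving out TMP195 replicate 2 brought the glycolysis median to -0.20.

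**Figure D3:**
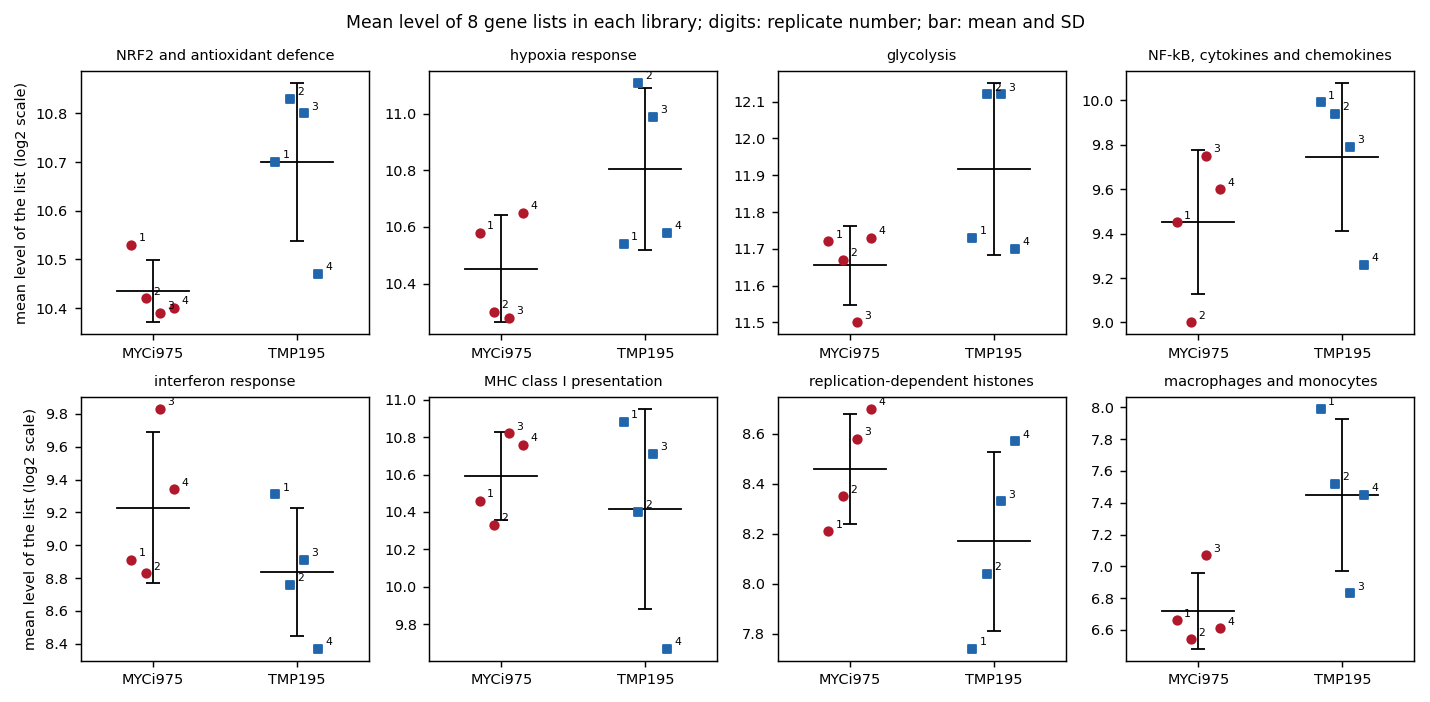
Mean level (log2 scale, vertical axis) of the tested members of 8 gene lists in each library, MYCi975 as red circles on the left and TMP195 as blue squares on the right, with the replicate number beside each point and the group mean ± SD in black. All 8 lists overlap between the compounds, and TMP195 replicate 4 is the lowest library for MHC class I presentation at 9.67.

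Interferon-stimulated genes, the antiviral sensors and effectors raised by interferons, were mostly higher in MYCi975. Of 60 tested members 56 were higher and 4 lower, with a median of 0.39, and 8 had an unadjusted p under 0.05, all higher, against 1.72% of all tested genes. The mean of the interferon list was 8.91, 8.83, 9.83 and 9.34 in MYCi975 libraries, against 9.31, 8.76, 8.91 and 8.37 in TMP195 libraries. MYCi975 replicate 3 was the highest and TMP195 replicate 4 the lowest, while the other 6 libraries lay between 8.76 and 9.34. The median was 0.20 without MYCi975 replicate 3, 0.24 without TMP195 replicate 4 and 0.15 without both libraries numbered 4, so its size rests on these libraries. Its sign did not change in these fits. MYCi975 replicate 3 and TMP195 replicate 4 were not left out together, so whether the sign rests on both was not tested.

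Zbp1 (ENSMUSG00000027514.15), a sensor of Z-form nucleic acids, was the member with the smallest p. It had 10.19, 10.12, 9.80 and 10.88 in MYCi975 libraries, against 9.44, 9.23, 9.37 and 9.0 in TMP195 libraries. All MYCi975 libraries lay above all TMP195 libraries, by 0.99 (SE 0.21, limma adjusted p = 0.791), and the difference was 0.69 without both libraries numbered 4. Ifit1, an effector that binds foreign RNA ends, had 9.84, 10.36, 12.08 and 10.53 in MYCi975 libraries, against 10.12, 9.11, 9.71 and 9.20 in TMP195 libraries. Ifit3, which acts with it, had 7.95, 7.75, 9.18 and 8.51 in MYCi975 libraries, against 8.30, 7.18, 7.54 and 7.14 in TMP195 libraries. Both Ifit genes overlapped between the groups, and both were highest in MYCi975 replicate 3. Samd9l, an interferon-induced antiviral factor picked out after its values were seen, was the other member without overlap, higher by 0.47 in the mean. Thus 2 of 60 tested members were without overlap, against 1.13% of all tested genes. Ifit3 and its near copy Ifit3b can share reads, so their single values are uncertain.

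MHC class I presentation, which shows peptides to T cells and is raised by interferons, was higher in the mean for 15 of 15 members, but none had an unadjusted p under 0.05 and none was free of overlap. Of all tested genes 1.72% had such a p in that direction and 1.13% did not overlap, so none of 15 is near these shares. Mean levels of this list were 10.46, 10.33, 10.82 and 10.76 in MYCi975 libraries, against 10.88, 10.40, 10.71 and 9.67 in TMP195 libraries. TMP195 replicate 4 alone lay low, and without it the median of 0.17 became -0.12. Tap2, a subunit of the peptide transporter, had 9.47, 9.44, 9.99 and 10.34 in MYCi975 libraries, against 9.83, 9.36, 9.58 and 9.40 in TMP195 libraries. The immunoproteasome subunit gene Psmb10 and the proteasome activator gene Psme2 differed by 0.33 and 0.26, with TMP195 replicate 4 the lowest library for both. The direction of this list therefore depends on 1 library.

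Histone genes that are transcribed in S phase were mostly higher in MYCi975. Of 54 tested members 48 were higher, with a median of 0.28, while 9 had an unadjusted p under 0.05 in that direction and 1 in the other, against 1.72% and 2.14% of all tested genes. The groups did not overlap for 3 members, all higher, against 1.13% of all tested genes. Hist1h2bl had 7.69, 7.73, 7.94 and 8.42 in MYCi975 libraries, against 6.47, 6.91, 7.42 and 7.48 in TMP195 libraries, without overlap. Hist1h2ah had 8.17, 8.14, 7.91 and 8.98 in MYCi975 libraries, against 6.51, 7.52, 7.04 and 7.93 in TMP195 libraries, so that the groups overlapped at their edges. Hist1h3h and Hist1h3c, picked out after their values were seen, did not overlap either, while Hist1h2ac was lower by 0.46 in the mean. The list mean was 8.21, 8.35, 8.58 and 8.70 in MYCi975 libraries, against 7.74, 8.04, 8.33 and 8.57 in TMP195 libraries. In both groups the mean rose with each replicate number, over a wider span than the difference of 0.29 between the compounds. The reason for this rise was not tested. Without TMP195 replicate 1 the median was 0.13, and without it and MYCi975 replicate 3 it was 0.11. Replication-dependent histone transcripts lack a poly(A) tail and can be captured in total RNA libraries. Their near-identical copies can share reads, and single members are uncertain. DNA replication and mitosis genes, which mark dividing cells, had medians of 0.07 and 0.04.

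Cytokine and NF-kB target genes were mixed. Of 21 tested members 15 were lower in MYCi975, with a median of -0.30, and 3 had an unadjusted p under 0.05, all lower and all with overlap, against 2.14% of all tested genes at that p. Cxcl5, a neutrophil-attracting chemokine, had 10.05, 8.95, 9.54 and 9.21 in MYCi975 libraries, against 10.15, 11.32, 11.12 and 9.61 in TMP195 libraries. Cxcl3, of the same family, had 5.68, 5.31, 6.75 and 5.15 in MYCi975 libraries, against 7.59, 7.25, 6.23 and 6.74 in TMP195 libraries. The third was Vcam1, an adhesion molecule picked out after its values were seen, at -0.57. For Cxcl3 the TMP195 libraries alone sufficed to pass the filter, while most of its MYCi975 values lay below the cut. The count and the median of this list are therefore not independent of the filter. Csf3, the growth factor of neutrophils, differed by -0.58 (95% confidence interval -1.51 to 0.35), with values from -0.94 without TMP195 replicate 4 to -0.31 without MYCi975 replicate 2. Ccl2 and Csf1, which draw and sustain macrophages, differed by 0.14 and 0.10. With the leukocyte markers as a covariate the median of this list was 0.02, and it was -0.07 without MYCi975 replicate 2 and -0.09 without TMP195 replicate 1.

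Genes of mitochondrially encoded proteins (10 of 13 higher, median 0.18) and of the BCL2 family (8 of 13 higher, median 0.14) had small medians. The first became -0.04 without MYCi975 replicate 3, and the second became -0.04 without both libraries numbered 4. mt-Nd4 and mt-Nd4l, subunits of respiratory complex I, differed by 0.33 and 0.36, and mt-Nd3 by 0.35, each with an interval that included 0. Without TMP195 replicate 3, mt-Nd4 and mt-Nd4l each differed by 0.11, and without MYCi975 replicate 3 mt-Nd3 differed by -0.23. Bcl2 (ENSMUSG00000057329.8), which protects cells from apoptosis, was the 1 member of 13 in its list without overlap, against 1.13% of all tested genes. It had 11.22, 11.54, 11.36 and 11.11 in MYCi975 libraries, against 10.94, 10.71, 10.94 and 10.93 in TMP195 libraries. The groups did not overlap, and the difference of 0.43 (SE 0.12) had an adjusted limma p of 1. The other BCL2 family members with the widest differences in that direction, Bok (0.23) and Bid (0.19), promote apoptosis and overlapped between the groups. Bcl2l1, which also protects from apoptosis, differed by -0.41 in the other direction, with overlap, and was picked out after its values were seen.

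Across all genes, those with the smallest p in each direction were also examined by library. The receptor gene Cd93 (ENSMUSG00000027435.9), made by endothelial and myeloid cells, had 6.31, 6.39, 6.55 and 6.57 in MYCi975 libraries, against 8.0, 7.57, 7.47 and 7.32 in TMP195 libraries. F13a1, the catalytic subunit of clotting factor XIII and a product of monocytes, macrophages and platelets, had 6.31, 6.28, 5.66 and 6.03 in MYCi975 libraries, against 8.06, 7.37, 6.85 and 7.69 in TMP195 libraries. Ccl9, a chemokine of myeloid cells, had 6.01, 6.19, 6.48 and 6.32 in MYCi975 libraries, against 7.91, 7.26, 7.13 and 7.13 in TMP195 libraries. For all 3 genes the groups were apart, by -1.14 (SE 0.17) for Cd93, -1.42 (SE 0.25) for F13a1 and -1.11 (SE 0.20) for Ccl9. Their adjusted limma p-values were 0.641 for Cd93 and 0.735 for F13a1. All 3 were too low for the stricter filter, so few reads lie behind their values. When all 16 libraries of the series shared 1 estimate of the spread, Cd93 was called with an adjusted limma p of 0.0286. Over the 19 alternatives that kept Cd93 this p ran from 0.0286 to 1.

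Other genes with low p and lower levels in MYCi975 included well expressed ones. Angpt1, a ligand that steadies blood vessels through the receptor TIE2, had 9.71, 9.77, 9.05 and 9.86 in MYCi975 libraries, against 10.39, 10.50, 11.03 and 11.06 in TMP195 libraries. Gpcpd1, a glycerophosphocholine phosphodiesterase, had 10.03, 9.86, 10.09 and 9.57 in MYCi975 libraries, against 10.47, 10.88, 10.66 and 10.62 in TMP195 libraries. Both were free of overlap, with differences of -1.15 (SE 0.21) for Angpt1 and -0.77 (SE 0.14) for Gpcpd1. Rusc2 (-0.70), the lipid flippase gene Atp8b4 (-0.92) and the mannose receptor gene Mrc1 (-0.73) completed the 8 lower genes, all without overlap. Atp8b4 and Mrc1 were also too low for the stricter filter.

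Among the genes with the smallest p that were higher in MYCi975, Jup, the plakoglobin of cell junctions, had 7.25, 7.56, 7.84 and 7.64 in MYCi975 libraries, against 6.69, 6.81, 6.38 and 6.86 in TMP195 libraries. Coq8a, needed for ubiquinone synthesis, had 6.99, 7.10, 6.93 and 7.30 in MYCi975 libraries, against 6.09, 6.19, 6.58 and 6.28 in TMP195 libraries. Gli2, a transcription factor of Hedgehog signalling, had 8.72, 8.85, 9.21 and 9.57 in MYCi975 libraries, against 7.99, 8.62, 8.02 and 8.25 in TMP195 libraries. These 3 genes were apart in all libraries, by 0.89 (SE 0.17) for Jup, 0.79 (SE 0.16) for Coq8a and 0.87 (SE 0.21) for Gli2. Zbp1 was among these genes, and others were Trp53i11 (0.80), the lipid transporter gene Abca9 (0.78) and the cyclophilin gene Ppia (0.49), also without overlap. None of the genes named here passed the test, and Jup and Coq8a were too low for the stricter filter.

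**Figure D4:**
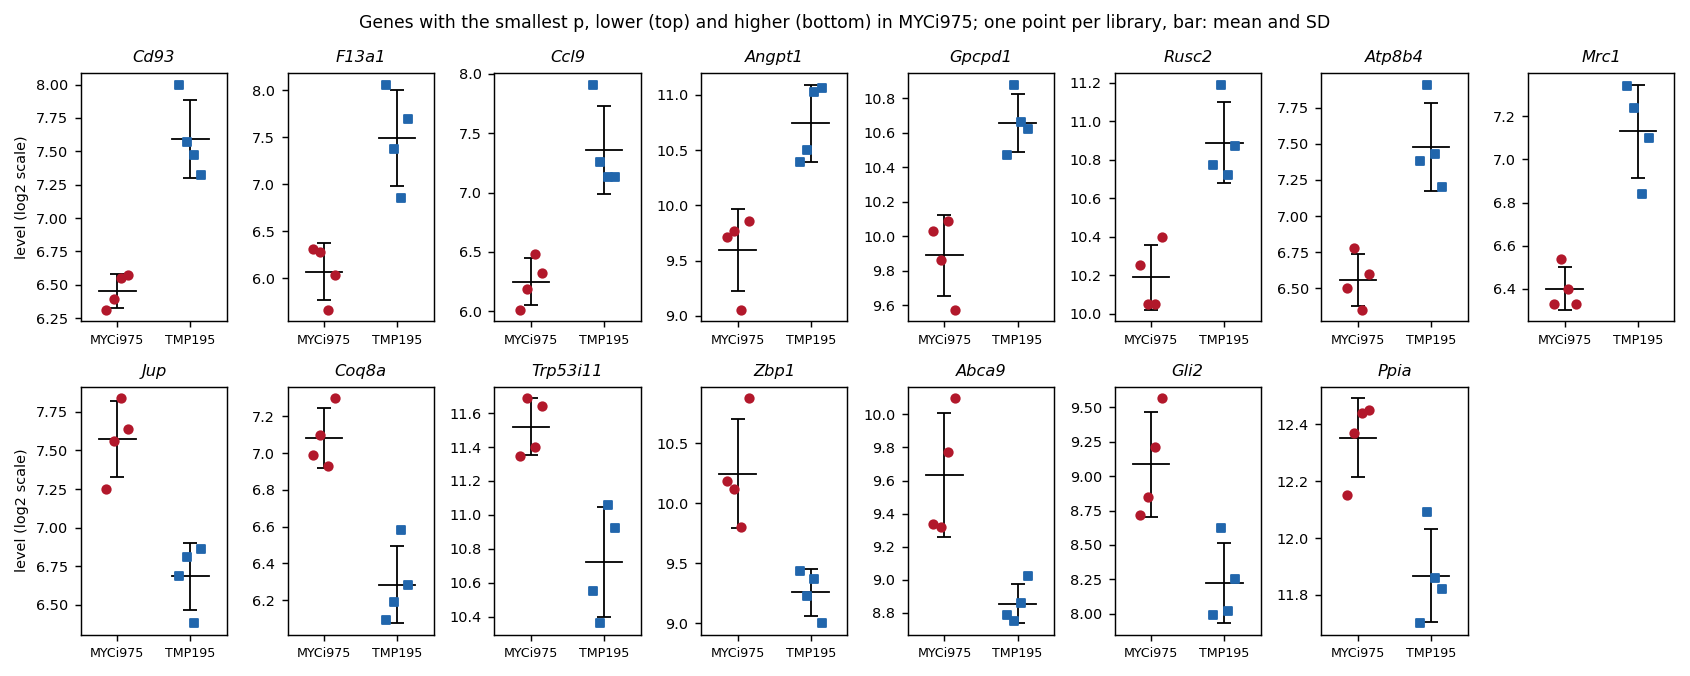
Level (log2 scale, vertical axis) in each library of the 8 genes with the smallest p that were lower (top row) and 7 of those that were higher (bottom row) in MYCi975. Red circles on the left are MYCi975 and blue squares on the right TMP195 libraries, with the mean ± SD in black (n = 4 each); the compounds do not overlap in any panel, and the genes were chosen by this difference.

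By the size of the smallest difference between libraries of the same replicate number, 2 further genes were named, Hist1h2ah and Rpl10a-ps1. Same-numbered libraries were not treated as pairs, so this ranking rests on a matching by label alone. Both genes overlapped between the groups. Rpl10a-ps1, a pseudogene of a ribosomal protein gene, had 9.30, 4.84, 4.84 and 4.84 in MYCi975 libraries, against 10.37, 8.74, 9.53 and 9.64 in TMP195 libraries. Thus 3 MYCi975 libraries were at the lowest value and the fourth was near the TMP195 level. Without MYCi975 replicate 1 it was called (difference -4.73, limma adjusted p = 0.000706), and over 20 alternatives its adjusted p ran from 0.000706 to 1. Its parent gene Rpl10a had 12.59, 12.35, 12.52 and 12.44 in MYCi975 libraries, against 12.24, 12.33, 12.04 and 12.02 in TMP195 libraries. Reads of the pair cannot be told apart with certainty, and the value of Rpl10a-ps1 is uncertain.

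Markers of other cell types were compared because the libraries come from an enriched population and not a pure one. In such bulk samples, fewer cells of a type and less RNA per cell cannot be told apart. Vim, the mesenchymal filament gene of LLC1 cells, lay at 16.69 to 17.42 in MYCi975 libraries, against 16.87 to 17.17 in TMP195 libraries. Krt8 and Krt18, keratins of epithelial cells, were detected in all 8 libraries, between 10.17 and 11.42, whereas the epithelial surface genes Cdh1 and Epcam were too low to be tested.

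Macrophage and monocyte markers had the lowest median of all lists, -0.76, with 10 of 12 tested members lower in MYCi975, 7 of them at an unadjusted p under 0.05, against 2.14% of all tested genes. With the stricter filter, which drops weakly expressed members, the median was -0.41. Averaged over the 12, the level was 6.66, 6.54, 7.07 and 6.61 in MYCi975 libraries, against 7.99, 7.52, 6.83 and 7.45 in TMP195 libraries. Only TMP195 replicate 3 lay within the MYCi975 range. Lyz2, the lysozyme of myeloid cells, had 6.91, 6.50, 7.16 and 6.90 in MYCi975 libraries, against 9.87, 8.81, 7.10 and 8.44 in TMP195 libraries. Csf1r, the receptor that macrophages need to survive, had 5.46, 5.75, 5.67 and 5.50 in MYCi975 libraries, against 7.54, 7.07, 5.4 and 6.75 in TMP195 libraries. All MYCi975 values of Csf1r lay less than 1 unit above the lowest value, so it passed the filter through other libraries. Of the 19 markers of this list 12 passed the filter. The counts and the median of the list are therefore not independent of the filter. Mrc1 had 6.33, 6.54, 6.40 and 6.33 in MYCi975 libraries, against 7.34, 7.24, 6.84 and 7.10 in TMP195 libraries. Mrc1 and the lysosomal marker Cd68 (-0.31) did not overlap between the groups, 2 of 12 against 1.13% of all tested genes, while Lyz2 and Csf1r overlapped through TMP195 replicate 3 alone. Arg1, the arginase of myeloid cells, was picked out after its values were seen from a list of immune checkpoint genes, of which 7 were higher and 6 lower with a median of 0.01. It was the member of that list with the lowest difference and the only one of 13 without overlap, against 1.13% of all tested genes. Arg1 had 6.79, 6.73, 6.48 and 6.77 in MYCi975 libraries, against 8.83, 7.90, 6.91 and 7.54 in TMP195 libraries.

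Other leukocyte markers gave a less uniform picture. Ptprc, the CD45 antigen of all leukocytes, had 6.55, 5.87, 8.04 and 7.16 in MYCi975 libraries, against 8.95, 8.19, 7.30 and 7.77 in TMP195 libraries. The groups overlapped, and the difference was -1.15 (SE 0.45, exact permutation p = 0.114). The list mean over 7 markers of all leukocytes was 6.97, 6.89, 8.02 and 7.40 in MYCi975 libraries, against 8.53, 7.69, 7.09 and 7.60 in TMP195 libraries, with a median difference of -0.59 that was -0.28 without TMP195 replicate 1, -0.30 without MYCi975 replicate 2 and -0.91 without TMP195 replicate 3. This median was 0.27 with the stricter filter, which keeps genes of higher level. That value rests on few genes, as the highest difference of any member was 0.28. With the leukocyte markers as a covariate the median was -0.03. The covariate is the mean of these same markers, so a value near 0 was fixed in advance and says nothing further. Arhgap30 and Ptpn6 of this list were higher in MYCi975, and Arhgap30 had a level of 10.86 to 11.61 in every library.

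A list of dendritic cell markers and MHC class II genes, which dendritic cells, B cells and activated macrophages bear, had 10 of 12 tested members lower in MYCi975, with a median of -0.32, overlapping list means and no called gene. At an unadjusted p under 0.05 there were 5 of these members, all lower, against 2.14% of all tested genes. H2-Ab1 had 5.46, 5.32, 5.46 and 5.80 in MYCi975 libraries, against 7.14, 6.49, 5.97 and 6.02 in TMP195 libraries, and H2-Ab1 and H2-Eb1 were the 2 members without overlap, against 1.13% of all tested genes. All MYCi975 values of H2-Ab1 lay below the cut of the filter and its TMP195 values alone sufficed to pass it. Its separation, and with it the counts and the median of this list, are therefore not independent of the filter. Neutrophil markers had a median of -0.14 over 6 members, and MYCi975 replicate 3 had the highest list mean of all 8 libraries, 8.16. The neutrophil median was -0.64 without MYCi975 replicate 3, 0.23 without MYCi975 replicate 2 and 0.05 without MYCi975 replicate 1. It was 0.52 with the stricter filter, which is also the highest difference of any of the 6 members, so this value rests on few genes. With the leukocyte markers as a covariate it was 0.40, and no direction is given for neutrophil markers. Of the T and NK cell markers, 7 of 14, among them Cd3e, Cd4 and Cd8a, stayed within 1 unit of the lowest value in all 8 libraries. Of the macrophage markers Adgre1, Cd163, C1qc and Ms4a7 did the same. Of the 3 tested T and NK cell markers Il2rb was lower by 0.79 in the mean without overlap, against 1.13% of all tested genes, and was picked out after its values were seen. No marker of these lists was at the lowest value itself in all 8 libraries.

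Cd93, F13a1, Ccl9, Mrc1 and Cxcl3, given above, are expressed in myeloid cells. With the mean of the leukocyte markers as a covariate they differed by -1.01 (Cd93), -1.34 (F13a1), -0.91 (Ccl9), -0.66 (Mrc1) and -0.82 (Cxcl3), against -1.14, -1.42, -1.11, -0.73 and -1.23 without it. With the same covariate, the median was -0.47 for macrophage markers, -0.30 for NRF2 genes, -0.44 for hypoxia genes, -0.40 for glycolysis genes, 0.26 for histone genes and 0.61 for interferon genes. Without TMP195 replicate 1 and MYCi975 replicate 3, the libraries highest in leukocyte markers, these medians were -0.59, -0.20, -0.32, -0.28, 0.11 and 0.29 in the same order. The covariate itself was lower in MYCi975 in the mean, so it cannot be told apart fully from the compound.

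Stromal and matrix lists were close to even. Of 34 genes of collagens and matrix 18 were higher in MYCi975, with a median of 0.02. Col4a1 and Col4a2, the paired chains of basement membrane collagen, were the 2 members without overlap, against 1.13% of all tested genes. Col4a1 had 12.81, 12.80, 12.35 and 12.71 in MYCi975 libraries, against 13.56, 12.98, 12.92 and 13.15 in TMP195 libraries. Col4a2 lay at or below 12.17 in all MYCi975 libraries, against 12.41, 12.21, 12.52 and 12.27 in TMP195 libraries. Both were lower in MYCi975, by 0.49 and 0.40 in the mean, and were picked out after their values were seen. Markers of fibroblasts and pericytes had a median of 0.13, which was -0.03 without both libraries numbered 4 and -0.02 without MYCi975 replicate 4, and endothelial markers one of -0.08. Pdgfra, a fibroblast marker, lay at 12.44 to 12.97 in MYCi975 libraries and 12.67 to 13.04 in TMP195 libraries. Whether tumour cells or other cells made its RNA was not tested. Markers of erythrocytes and platelets had a median of -0.40 with 3 of 4 lower, and one of -0.13 without TMP195 replicate 2. Markers of adipocytes and skeletal muscle had a median of 0.30 with 3 of 3 higher, and one of 0.12 without TMP195 replicate 1 and MYCi975 replicate 3. Both lists are short, and their part in the other results was not tested.

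Other programmes had medians near 0. The medians of p53 targets (19 genes, 0.01), the proteasome (31 genes, -0.01), the unfolded protein response (20 genes, 0.06), cholesterol synthesis (24 genes, 0.04), the TCA cycle (20 genes, 0.03), respiratory complex I (36 genes, 0.05) and autophagy and lysosome genes (30 genes, -0.04) lay within 0.1 units of 0, and those of p53 targets and the TCA cycle turned below 0 with median centring, as did that of collagens and matrix. Genes of the mesenchymal state had a median of -0.02 that was 0.01 with quantile normalisation. Tgfb3 was the 1 member of 25 with an unadjusted p under 0.05, against 1.72% of all tested genes in that direction. It was higher by 0.59 in the mean, with overlap. These medians do not show that the compounds act alike on these lists.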

How the data were processed

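Per the labels' protocols, column-purified RNA was made into stranded total RNA libraries. The submitters' processing notes name Salmon, without a version, and the build hg38, although the samples and identifiers are mouse. The deposited values are variance-stabilised counts on a log2 scale; the sources used here name neither the tool nor the mouse annotation. Symbols matched 23150 of 24334 identifiers (95.13%).

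A linear model with 1 mean for each compound was fitted to the 8 libraries with limma 3.58.1 (R 4.3.3; empirical Bayes with intensity trend). P-values are two-sided, Benjamini-Hochberg adjusted over the 15715 tested genes, and called under 0.05. The method was tested on simulated data with shifts larger than any list median given here and without effects shared by a library. It does not show whether smaller differences would be called. Vehicle and combination libraries served the filter and 1 alternative.

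The comparison, the 45 gene lists and the naming rule were chosen with earlier results of these data known. Named were Myc, Max, Mxi1, the class IIa HDAC genes and Ptprc; the 8 genes with the smallest p in each direction, without predicted or unnamed genes, of which 1 is not reported here; 3 members with the largest difference in each pathway list with a median of at least 0.1; and the 6 genes with the largest smallest difference between same-numbered libraries. Lists are described without a test. RefSeq promoters (GRCm38.p6) matched 10235 tested genes and 33 of 51 named genes. Depth is unknown, so no counting interval is given.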

Additional observations from a re-analysis of the deposited data

Results flagged for a closer look

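In 8 of 134 sets of 4 libraries, 1 library lay far from the other 3, judged by its gap to the nearest value over the whole range against Dixon's 95% critical value; chance gives about 1 in 20. Rpl10a-ps1 in MYCi975 had a ratio of 1.0, with replicate 1 the highest. Psme2 in MYCi975 had a ratio of 0.940, with replicate 4 the lowest at 10.19. Bcl2 in TMP195 had 0.949, with replicate 2 the lowest at 10.71. Ccl9 in TMP195 had 0.833, with replicate 1 the highest at 7.91. Pdk1 had 0.833 in MYCi975, with replicate 3 the lowest, and 0.894 in TMP195, with replicate 1 the lowest. The list mean of the BCL2 family in TMP195 had 0.860, with replicate 4 the lowest at 9.19. The list mean of erythrocyte and platelet markers in MYCi975 had 0.842, with replicate 2 the highest at 6.54.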

How the results depend on the processing

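The count of called genes was 0 except with all 16 libraries in the fit (1, Cd93) and without single libraries (0 to 2; the 2 were Rpl10a-ps1 and a gene without a symbol, both without MYCi975 replicate 1). An unadjusted p under 0.05 was found for 606 genes, against 357 with the stricter filter, 913 without both libraries numbered 4, 976 with library weights and 1058 with no filter. Same-numbered libraries were not treated as paired: their deviations correlated by 0.37, 0.11 and 0.24 for numbers 1, 2 and 4 but by -0.24 for number 3, and not every library correlated best with its own number; the replicate block gave 0 called and 728 at an unadjusted p under 0.05. Of the alternatives for list medians, 301 kept direction and size, 4 moved and 12 reversed. Among the 4 was the leukocyte list with the mean of its own markers as a covariate, where a value near 0 was fixed in advance. For named genes 997 kept their direction and side of the threshold, 8 reversed and 2 became called.

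Without both libraries numbered 4, the medians of MHC class I presentation (-0.140), the BCL2 family (-0.037) and fibroblasts and pericytes (-0.031) and the value of Psmb10 (-0.007) reversed. With the leukocyte covariate the NF-kB and cytokine median (0.022) and the neutrophil median (0.402) reversed, and with the stricter filter those of all leukocytes (0.266) and neutrophils (0.523), as fewer members were tested. Without the 2 libraries highest in leukocyte markers mt-Nd3 (-0.275) and Max (0.042) reversed. Leaving out single libraries gave ranges that crossed 0 for mitochondrially encoded proteins (-0.040 to 0.359), MHC class I presentation (-0.116 to 0.349), neutrophils (-0.643 to 0.227), fibroblasts and pericytes (-0.020 to 0.234), Psme2 (-0.024 to 0.478), mt-Nd3 (-0.226 to 0.655), Hdac7 (-0.186 to 0.027) and Max (-0.094 to 0.076). Apart from the filter, the cause of these changes was not tested. The stricter filter left no members of the markers of adipocytes and muscle, of dendritic cells and MHC class II or of erythrocytes and platelets, and gave no value for named genes below it, such as Cd93 and Hdac9.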
